A study of Mus musculus with 10 samples.

Results

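The genes described here encode the main heat shock proteins of the cytosol and mitochondrion in mouse liver: Hspa1a, Hspa1b, Hspa8, Hsph1, Dnajb1, Dnaja1, Hsp90aa1, Hsp90ab1, Hspb1 and Hspd1. They were chosen by name, and their probe sets were those whose symbol in the platform's annotation equals one of the 10 names. Of the 10 genes 9 were measured, on 23 probe sets, among 18193 genes on the array. Hsp90ab1 was not analysed here. All 10 animals were male B6C3F1/Crl mice, a hybrid of C57BL/6 males and C3H/He females, received at 29 to 32 days of age and given 5 days to settle. For 28 days, 5 of them had phenobarbital in their drinking water at 0.05% (w/v), and 5 were untreated controls. Each array holds RNA of 1 whole liver, and its deposited values are log2 expression levels, so that a difference of 1 is a 2-fold change. By its title, the wider study dealt with hydroxymethylcytosine, an oxidised form of methylated cytosine, in livers exposed to carcinogens that do not damage DNA.

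Heat shock proteins are chaperones, which bind unfolded or newly made proteins and help them to fold. HSP70 proteins (Hspa1a, Hspa1b, Hspa8) work with J proteins (Dnajb1, Dnaja1), which deliver clients and start ATP hydrolysis, and with nucleotide exchange factors (Hsph1), which release ADP. HSP90 (Hsp90aa1) holds steroid receptors and kinases in an activatable form, and in liver cytosol it also takes part in the complex that keeps the constitutive androstane receptor, the phenobarbital-responsive receptor, out of the nucleus. Hspb1 is a small heat shock protein that keeps unfolded proteins soluble, and Hspd1 is the chaperonin of the mitochondrial matrix. Under protein-damaging stress the transcription factor HSF1 binds heat shock elements, inverted repeats of GAA, and raises many of these genes at once, Hspa1a and Hspa1b most of all, while Hspa8 is made in most cells without stress.

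Because the genes share this control, the sequence upstream of their start sites was searched for the letters GAANNTTC and TTCNNGAA, which each read the same on both strands, and for their overlap on both strands, a 13-letter form in which GAANNTTC is followed by NNGAA and which holds both. RefSeq windows (GRCm38.p6) were found for 7 of the 10 genes, with none for Hspa8, Hsp90aa1 and Hsp90ab1. The 250 bases before each start site were searched. For 6 genes, Hspa1a, Hspa1b, Hsph1, Dnaja1, Hspb1 and Hspd1, at least 1 window held an 8-letter form, against 14.5% of all genes with a window. The other windows of Dnaja1 and Hspd1 held none, and neither window of Dnajb1 held one. The 13-letter form had 2 overlapping matches in 1 window of Hspd1 and was in 0.466% of all windows. A match of letters is a description and not a binding site. The windows are shown because they let the near-identity of Hspa1a and Hspa1b be seen, with the matched letters in capitals. They lie at chr17:34972157-34972406 (minus strand) for Hspa1a, chr17:34959239-34959488 (minus strand) for Hspa1b, chr5:135887669-135887918 (plus strand) for Hspb1 and chr4:40722218-40722467 (plus strand) for Dnaja1.
Hspa1a: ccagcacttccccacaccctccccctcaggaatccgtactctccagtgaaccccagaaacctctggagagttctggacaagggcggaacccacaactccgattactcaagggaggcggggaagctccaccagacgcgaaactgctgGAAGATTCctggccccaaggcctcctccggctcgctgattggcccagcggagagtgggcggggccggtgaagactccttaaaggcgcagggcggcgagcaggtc
Hspa1b: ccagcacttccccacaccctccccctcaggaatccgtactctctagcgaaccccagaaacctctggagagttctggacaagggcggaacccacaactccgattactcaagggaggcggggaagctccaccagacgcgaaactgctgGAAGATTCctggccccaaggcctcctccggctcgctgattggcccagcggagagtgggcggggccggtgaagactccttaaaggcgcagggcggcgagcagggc
Hspb1: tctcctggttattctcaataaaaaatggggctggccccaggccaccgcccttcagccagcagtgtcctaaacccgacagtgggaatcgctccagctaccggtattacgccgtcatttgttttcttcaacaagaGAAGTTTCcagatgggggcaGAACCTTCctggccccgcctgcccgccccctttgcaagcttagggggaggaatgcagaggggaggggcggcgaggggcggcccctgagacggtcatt
Dnaja1: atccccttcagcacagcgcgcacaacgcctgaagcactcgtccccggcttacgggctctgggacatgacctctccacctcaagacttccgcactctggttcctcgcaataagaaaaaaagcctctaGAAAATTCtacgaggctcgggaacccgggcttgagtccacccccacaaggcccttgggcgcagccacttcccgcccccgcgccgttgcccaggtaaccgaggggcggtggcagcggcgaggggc
For Hsph1 and Hspd1 a stretch of 30 bases around the match is shown, at chr5:149636351-149636380 and chr1:55088053-55088082, both on the minus strand.
Hsph1: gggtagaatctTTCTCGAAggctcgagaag
Hspd1: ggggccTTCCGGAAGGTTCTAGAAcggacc
The windows of Hspa1a and Hspa1b matched at 247 of 250 positions. In both, the match begins 104 bases before the start site, and both matches of Hspb1 are of the GAANNTTC form. The transcripts of this gene pair are similar as well, so probe sets of either may bind RNA of both.

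Transcripts of the inducible HSP70 pair and of the J protein Dnajb1 were higher in every treated liver than in any control. Of the 9 measured genes, 6 rose (Hspa1a, Hspa1b, Dnajb1, Dnaja1, Hsp90aa1 and Hspd1) and none fell at an adjusted p of 0.05 by limma, whereas 20.3% of all genes passed that rule, 9.02% higher and 11.3% lower. At an unadjusted limma p under 0.05, 8 were higher and 0 lower, and 6372 of all 18193 genes passed in either direction. Of the 6, 3 genes, Hspa1a, Hspa1b and Dnajb1, rose at least 2-fold, which 0.379% of all genes did, and without treated replicate 1 Dnajb1 was below 2-fold (0.84 on the log2 scale). The groups did not overlap, with treated livers higher, in 5 of the 9 genes and in 5.73% of all genes. The median log2 change over the 9 genes was 0.48, beside 0.01 over all genes. In whole liver, fewer cells of a type and less RNA per cell cannot be told apart.

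The arrays fall into 2 sets on the poly-A spike-ins, bacterial RNAs added before labelling, whose mean ranged from 7.77 to 8.64 for control replicates 1, 2, 3 and 5. It was 6.40 for control replicate 4 and ranged from 5.76 to 6.58 for treated livers. For beta-actin, the difference between 3' and 5' probe sets, a sign of RNA integrity and labelling length, was 1.28 to 1.78 in controls (1.28 on control replicate 4) and 1.19 to 1.33 in treated livers. For Gapdh it was -0.15 to -0.03 in controls (-0.15 on control replicate 4) and -0.28 to -0.21 in treated livers, with the groups apart. The part of these array measures in the changes of the heat shock genes was not tested. With the spike-in set as a block, each change is the treated mean minus control replicate 4 alone, and then 0 of the 9 genes and 0.786% of all genes passed by limma, with 3 of the 9 (Hspa1a, Hspa1b and Dnajb1) at an unadjusted p under 0.05. With the spike-in mean as a covariate limma also called 0 of the 9, and 0.709% of all genes, with 3 of the 9 at an unadjusted p under 0.05. How many of all genes passed the unadjusted limit in these fits was not counted. Control replicate 4 is the only control in the low set, so that its animal and the spike-in set cannot be told apart. All treated livers are in the low set too, so treatment and spike-in set are separated by that 1 control only.

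**Figure D1:**
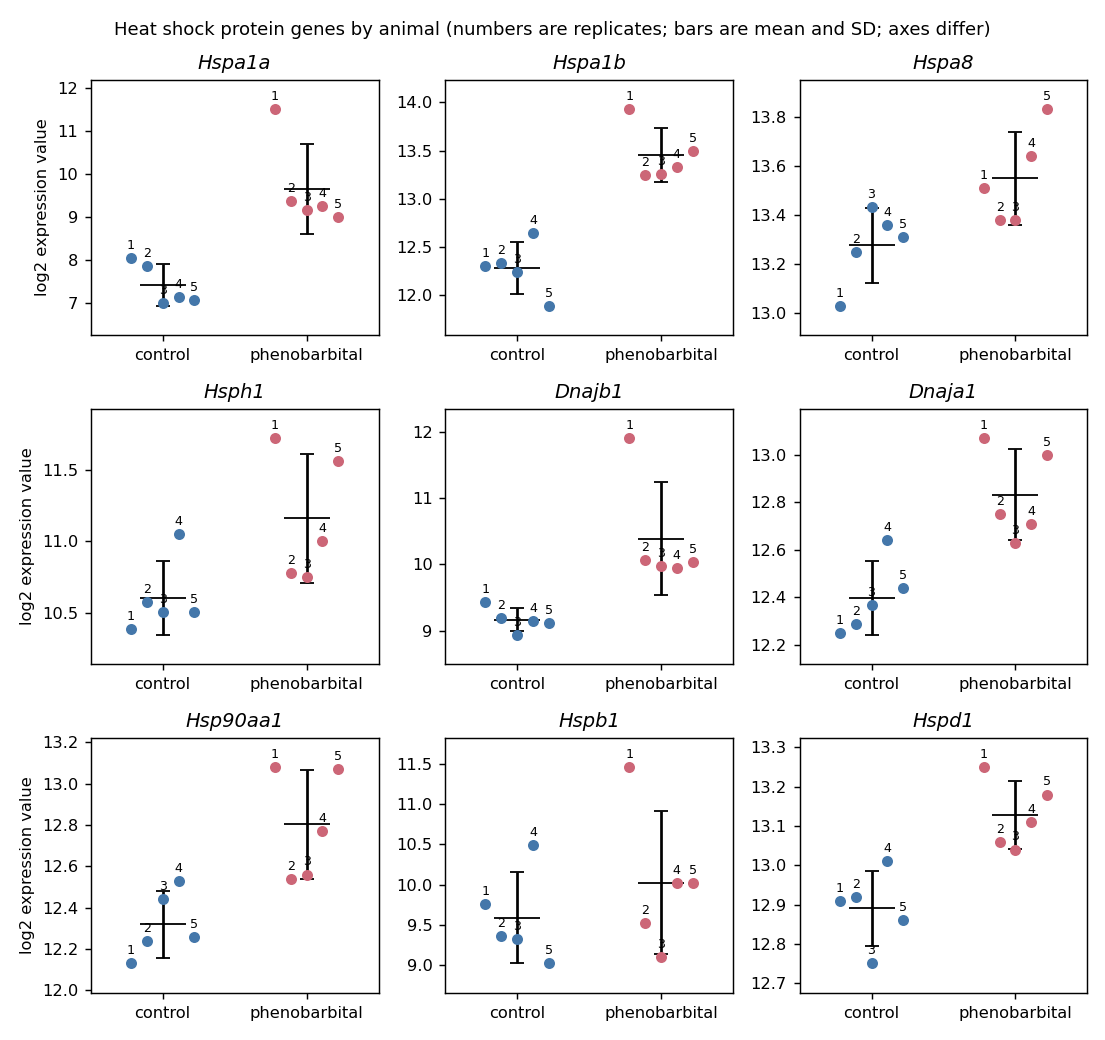
Log2 expression value (vertical axes, which differ between panels) of each of the 9 heat shock protein genes in the 5 control and 5 phenobarbital livers. Points are animals with their replicate number, the long line is the group mean and the bar its SD. Phenobarbital replicate 1 is the highest point in every panel except Hspa8, and the groups do not overlap for Hspa1a, Hspa1b, Dnajb1, Hsp90aa1 and Hspd1.

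Hspa1a, 1 of the stress-inducible HSP70 genes, has a single probe set (1452388_at). Its values in controls 1 to 5 were 8.04, 7.86, 7.01, 7.15 and 7.07, and those in treated replicates 1 to 5 were 11.50, 9.37, 9.15, 9.25 and 9.0. All treated livers lay above all controls, and replicate 1 stood far above the other 4 treated animals. The mean went from 7.43 ± 0.49 to 9.65 ± 1.04 (SD, n = 5 each), a log2 change of 2.23 ± 0.40 (SE) or 4.68-fold, with a limma adjusted p of 0.00339. Replicate 1 alone was 16.8-fold above the control mean. Without it the log2 change was 1.77 ± 0.20 (SE, limma adjusted p = 0.000303). With the spike-in set as a block it was 2.50 ± 0.73 (SE, limma adjusted p = 0.157).

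Hspa1b, the neighbouring copy on chromosome 17, was represented by 1452318_a_at. Controls 1 to 5 read 12.30, 12.33, 12.24, 12.64 and 11.89, and treated replicates 1 to 5 read 13.93, 13.25, 13.26, 13.33 and 13.50. Here too the groups were apart, with replicate 1 highest of the treated livers and control replicate 4 highest of the controls. Hspa1b rose from 12.28 ± 0.27 to 13.45 ± 0.28 (SD, n = 5 each), by 1.17 ± 0.15 (SE) on the log2 scale or 2.26-fold (limma adjusted p = 0.00036). Its other probe sets gave larger changes, 1.86 ± 0.23 (SE) on 1427126_at and 1.57 ± 0.22 (SE) on 1427127_x_at, and the groups were apart on each. The value against control replicate 4, from the block, was 0.81 ± 0.23 (SE, limma adjusted p = 0.145).

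Hspa8, the HSP70 made without stress, did not pass on its representing probe set 1455789_x_at, where controls 1 to 5 read 13.03, 13.25, 13.43, 13.36 and 13.31 and treated replicates 1 to 5 read 13.51, 13.38, 13.38, 13.64 and 13.83. The groups overlapped, replicate 5 was the highest treated liver and the log2 change was 0.27 ± 0.10 (SE, limma adjusted p = 0.0698). Its call depends on the probe set: tested singly over all probe sets, 1420622_a_at (0.64 ± 0.18 SE) and 1420623_x_at (0.52 ± 0.11 SE) rose and kept the groups apart, with limma adjusted p of 0.0292 and 0.00793. On 1431182_at, other animals were high and low, with 9.65 in treated replicate 1, 7.32 in treated replicate 5 and controls between 7.35 and 8.44. That probe set was not called (0.57 ± 0.34 SE). With the mean of its 4 probe sets Hspa8 passed (0.50, limma adjusted p = 0.00241).

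Dnajb1, the J protein that partners inducible HSP70, read 9.43, 9.19, 8.94, 9.15 and 9.12 in controls 1 to 5 and 11.91, 10.07, 9.98, 9.95 and 10.03 in treated replicates 1 to 5 (1416755_at). Replicate 1 again stood alone, and the other 4 treated livers lay close together and above every control. The gene rose by 1.22 ± 0.31 (SE) or 2.33-fold (limma adjusted p = 0.0161). Without replicate 1 the change was smaller and its error much smaller, 0.84 ± 0.09 (SE, limma adjusted p = 0.000179). The call was lost with trend and robust variance (limma adjusted p = 0.0509). The other probe set, 1416756_at, gave 1.11 ± 0.25 (SE), also with the groups apart.

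Dnaja1, a J protein that works with constitutive HSP70, read 12.25, 12.29, 12.37, 12.64 and 12.44 in controls 1 to 5 and 13.07, 12.75, 12.63, 12.71 and 13 in treated replicates 1 to 5 (1416288_at). Control replicate 4 lay just above treated replicate 3, so the groups overlapped by that animal alone. Dnaja1 rose by 0.43 ± 0.10 (SE) or 1.35-fold (limma adjusted p = 0.0108), and the value against control replicate 4 was 0.19. Of its other probe sets 1460179_at rose (0.56 ± 0.11 SE), with the groups apart, and 1459835_s_at gave 0.45 ± 0.16 (SE, limma adjusted p = 0.0614).

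Hsph1, the nucleotide exchange factor also called HSP110, did not pass on 1425993_a_at, with 10.39, 10.58, 10.51, 11.05 and 10.51 in controls 1 to 5 and 11.72, 10.78, 10.75, 11 and 11.56 in treated replicates 1 to 5. Treated replicates 1 and 5 were high, while control replicate 4 lay above the other 3 treated livers. The log2 change was 0.55 ± 0.19 (SE, limma adjusted p = 0.0539). It passed without control replicate 4 (0.66, limma adjusted p = 0.0219) and without treated replicate 2 or 3 (0.65 and 0.66), after quantile normalisation or median centring and when its probe sets were averaged. On its other probe set, 1423566_a_at, it rose by 0.83 ± 0.21 (SE, limma adjusted p = 0.0167). Against control replicate 4, the treated mean was 0.11 higher on the first probe set and 0.27 higher on the second.

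Hsp90aa1, the inducible HSP90 of the cytosol, read 12.13, 12.24, 12.44, 12.53 and 12.26 in controls 1 to 5 and 13.08, 12.54, 12.56, 12.77 and 13.07 in treated replicates 1 to 5 (1438902_a_at). The groups were narrowly apart, and treated replicates 1 and 5 were the high animals, as for Hsph1 and Dnaja1. Hsp90aa1 rose by 0.48 ± 0.12 (SE) or 1.40-fold (limma adjusted p = 0.0147). Its 5 probe sets differed. On 1426645_at the rise was 0.82 ± 0.19 (SE) and on 1441827_x_at, whose values of 3.09 to 3.73 lie near the bottom of the scale, 0.33 ± 0.09 (SE). The remaining 2 were not called, with -0.05 ± 0.08 (SE) on 1433251_at and -0.01 ± 0.28 (SE) on 1437497_a_at. With the mean of the 5 probe sets the gene's call was lost (0.31, limma adjusted p = 0.0813).

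Hspb1, the small heat shock protein also called HSP25, had the largest spread of the 9 genes among control animals, with an SD of 0.57. Its values on 1422943_a_at were 9.76, 9.36, 9.32, 10.49 and 9.02 in controls 1 to 5 and 11.46, 9.52, 9.10, 10.02 and 10.02 in treated replicates 1 to 5. Apart from treated replicate 1, every treated liver lay within the range of the controls. The log2 change was 0.43 ± 0.37 (SE, limma adjusted p = 0.433), 0.08 ± 0.27 (SE) without treated replicate 1 and 0.66 ± 0.36 (SE) without control replicate 4. Against control replicate 4 alone the direction turned, to -0.47 ± 0.59 (SE, limma adjusted p = 0.787). The other probe set, 1425964_x_at, gave 0.47 ± 0.42 (SE) over all 10 arrays.

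Hspd1, the mitochondrial chaperonin HSP60, showed the smallest change and the least spread. Controls 1 to 5 read 12.91, 12.92, 12.75, 13.01 and 12.86 on its probe set 1426351_at, and treated replicates 1 to 5 read 13.25, 13.06, 13.04, 13.11 and 13.18. All treated livers lay above all controls. It rose by 0.24 ± 0.07 (SE) or 1.18-fold (limma adjusted p = 0.0276). The call was lost without control replicate 3 or 5 or treated replicate 1, 4 or 5, with values from 0.20 to 0.24 and limma adjusted p from 0.0503 to 0.0646.

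**Figure D2:**
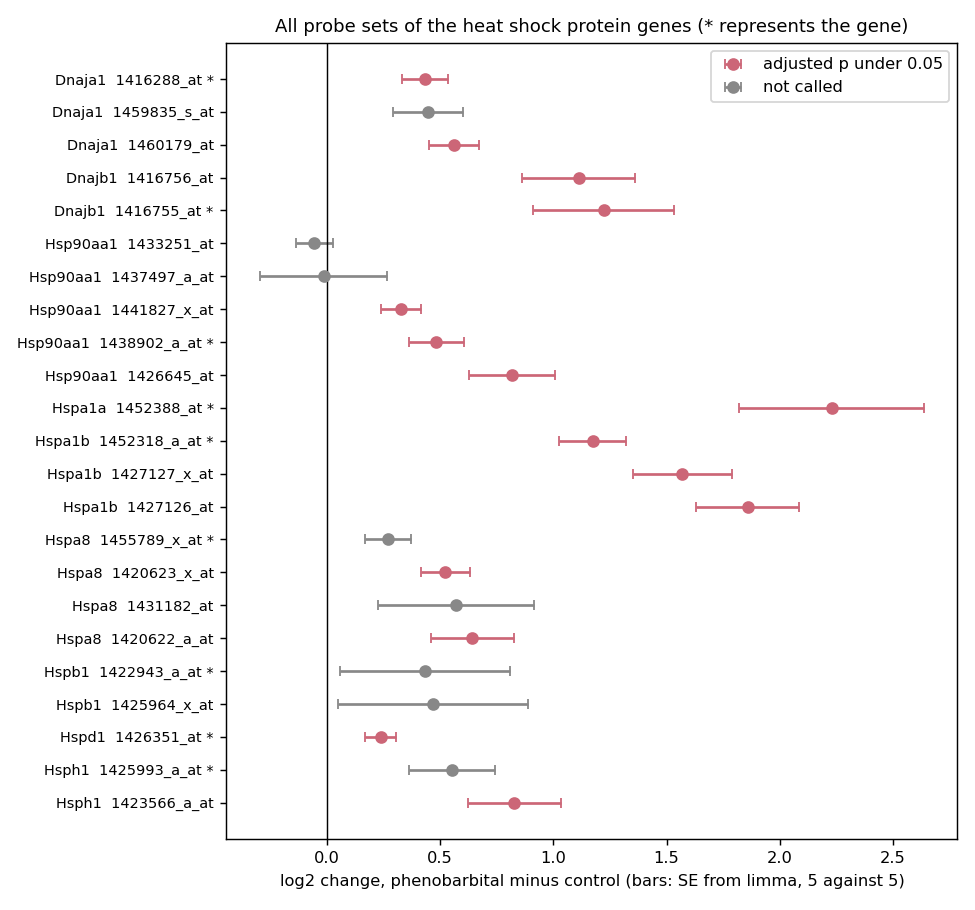
Log2 change (horizontal axis, phenobarbital minus control) of all 23 probe sets of the heat shock protein genes, with the SE from limma over 5 treated and 5 control livers. Red points passed an adjusted p of 0.05 over all probe sets, grey points did not, and a star marks the probe set that represents its gene. The changes run from -0.05 for a probe set of Hsp90aa1 to 2.23 for Hspa1a, and 21 of 23 lie above 0.

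Tested singly, 15 of the 23 probe sets rose and 0 fell by limma, against 7.7% of all probe sets that rose. The groups were apart, with treated livers higher, on 12 of the 23 and on 5.29% of all probe sets. Probe sets of 1 gene read the same RNA and are not separate evidence. Within a gene the calls differed for Hspa8 (2 of 4 probe sets called), Hsph1 (1 of 2), Dnaja1 (2 of 3) and Hsp90aa1 (3 of 5). What part of the transcript each one reads was not used here.

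Treated replicate 1 was the liver with the most heat shock transcript. It was the highest of all 10 arrays in 8 of the 9 genes (in all but Hspa8), beside 9.5% of all genes. It was also highest on 17 of the 23 probe sets, several of which read the same gene. The share over all probe sets was not counted. Among the 5 treated livers alone it was the highest in the same 8 genes, beside 19.8% of all genes. Its distance above the mean of the other 4 treated livers was 2.31 for Hspa1a, 1.90 for Dnajb1, 1.80 for Hspb1, 0.70 for Hsph1, 0.60 for Hspa1b, 0.35 for Hsp90aa1, 0.30 for Dnaja1 and 0.15 for Hspd1, and for Hspa8 that difference was -0.05. The 4 other treated livers were close together for Hspa1a, Hspa1b and Dnajb1, with SDs of 0.16, 0.12 and 0.05, beside 1.04, 0.28 and 0.85 with replicate 1. Hence for these 3 genes every treated animal was high and 1 of them was higher still. For Hspb1, replicate 1 was the only treated animal above all controls.

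Control replicate 4 was the highest control in 6 of the 9 genes (Hspa1b, Hsph1, Dnaja1, Hsp90aa1, Hspb1 and Hspd1), as it was in 30.4% of all genes. It lay 1.13 above the mean of the other controls for Hspb1, 0.55 for Hsph1 and 0.45 for Hspa1b, and below it for Hspa1a (-0.35) and Dnajb1 (-0.02). The mean of treated replicates 2 to 5 minus this control was 2.04 for Hspa1a, 0.86 for Dnajb1 and 0.70 for Hspa1b, 0.21 or less for Hsp90aa1, Hspa8, Dnaja1 and Hspd1, -0.03 for Hsph1 and -0.83 for Hspb1. Without treated replicate 1 the number of genes that rose was 5 of 9 (7.44% of all genes rose). It was 7 of 9 without control replicate 4 (12.1% of all genes) and 7 of 9 without both (11.4%), and none of the 9 fell in these fits.

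**Figure D3:**
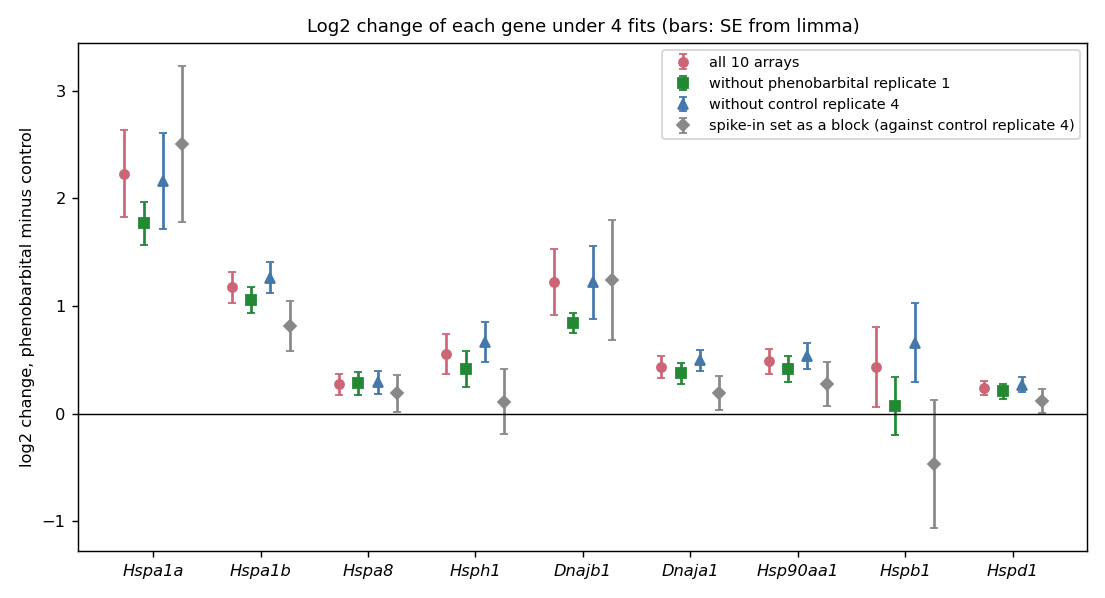
Log2 change of each gene (vertical axis, phenobarbital minus control) with its SE from limma, over all 10 arrays, without phenobarbital replicate 1, without control replicate 4, and with the spike-in set as a block. Hspa1a, Hspa1b and Dnajb1 stay between 0.81 and 2.50 in all 4 fits, Hsph1 is 0.11 with the block, and Hspb1 changes sign there (-0.47).

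The partners of HSP70 and HSP90 are read against the 9.02% of all genes that rose and the 11.3% that fell. Of 18 measured HSP70 co-chaperones 3 rose and 2 fell, which is near those shares, and their median log2 change was 0.02. Bag3, a nucleotide exchange factor that links HSP70 to autophagy and is itself a heat shock gene, read 10.12, 9.89, 9.68, 10.17 and 10.20 in controls 1 to 5 and 11.66, 11, 10.72, 10.79 and 11.46 in treated replicates 1 to 5. All treated livers were above all controls, and Bag3 rose by 1.11 ± 0.17 (SE), at a limma adjusted p of 0.00154. Without treated replicate 1 its rise was 0.98 ± 0.15 (SE). With the spike-in set as a block, against control replicate 4 alone, it was 0.96 with a larger error of 0.31 (SE). The HSP110 relative Hspa4l rose by 0.70 ± 0.14 (SE) and the J protein Dnajb2 by 0.40 ± 0.09 (SE), but only by 0.25 and 0.09 against control replicate 4 (limma adjusted p = 0.628 and 0.783), while Bag4 and Bag1 fell by 0.31 and 0.21. Against control replicate 4 the values of Bag4 and Bag1 were -0.15 and -0.17. Without treated replicate 1 the list had 3 higher and 0 lower, where 2937 of all 18193 genes were called in either direction.

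Of 13 measured HSP90 co-chaperones 4 rose and 2 fell, beside the same 9.02% and 11.3% of all genes. The HSP70-HSP90 adaptor Stip1 rose by 0.69 ± 0.13 (SE), the ATPase activator Ahsa1 by 0.57 ± 0.12 (SE) and the immunophilin Fkbp4 by 0.52 ± 0.11 (SE), with limma adjusted p between 0.00407 and 0.00677. All 3 were high in control replicate 4 as well, at 9.31, 11.02 and 10.57, where the other controls reached at most 8.83, 10.43 and 10.19. Their changes against that control, from the block, were 0.23, 0.09 and 0.11 and did not pass. Tsc1 and Sugt1 fell (-0.48 ± 0.10 and -0.23 ± 0.07 SE), and against control replicate 4 their values were -0.29 and -0.16.

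The other heat shock families are read against the same shares, 9.02% of all genes higher and 11.3% lower. Among 9 other genes listed as small heat shock proteins, Hspb8, a partner of Bag3, rose by 0.46 ± 0.13 (SE). That call was lost without treated replicate 1 (0.41, limma adjusted p = 0.0661). Against control replicate 4 Hspb8 was only 0.10 higher. Cryab and Hspb11 of the same list fell (-0.40 ± 0.10 and -0.64 ± 0.09 SE), and against control replicate 4 their values were -0.62 and -0.43. Of 6 other HSP70 family genes limma called none, and 3 were below 0.05 before adjustment, as were 6372 of all 18193 genes. After quantile normalisation or median centring 1 rose, where 3844 and 3720 of all genes were called in either direction. Of the 4 genes of heat shock factors and their binding proteins that were measured, Hsf2 fell by 1.27 ± 0.22 (SE) on the log2 scale, from 7.09, 6.84, 7.22, 5.69 and 6.86 in controls 1 to 5 to between 5.32 and 5.59 in treated livers. Control replicate 4 lay by the treated arrays, and the value against it was -0.22 (limma adjusted p = 0.559). Hsf1, the main heat shock factor, was not analysed here.

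In the mitochondrion, Hspe1, the co-chaperonin that closes the Hspd1 ring, rose by 0.20 ± 0.07 (SE, limma adjusted p = 0.0453) and the protease subunit Clpp by 0.23 ± 0.08 (SE). Grpel2, Clpx and Yme1l1 fell (-0.61, -0.39 and -0.31), so of 12 measured mitochondrial chaperones and proteases 2 rose and 3 fell, within 1 or 2 genes of the all-gene shares of 9.02% and 11.3%. Against control replicate 4 the value of Clpp was -0.02 (limma adjusted p = 0.963) and that of Yme1l1 was -0.04 (limma adjusted p = 0.925). The values of Hspe1, Grpel2 and Clpx against that control were 0.20, -0.44 and -0.43. Without treated replicate 1 neither rise passed, and 0 were higher and 3 lower, where 2937 of all 18193 genes were called in either direction. Hspa9, the mitochondrial HSP70, had a log2 change of -0.17 ± 0.07 (SE, limma adjusted p = 0.0843). In TRiC, the cytosolic chaperonin that folds actin and tubulin, 3 of 8 subunits rose and none fell by limma, beside 9.02% of all genes that rose. The counts were also 3 and 0 at an unadjusted p under 0.05, which 6372 of all 18193 genes passed in either direction. Cct7 rose by 0.50 ± 0.10, Cct3 by 0.32 ± 0.08 and Tcp1 by 0.23 ± 0.06 (SE). Against control replicate 4 Cct7 was only 0.10 higher (limma adjusted p = 0.730).

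**Figure D4:**
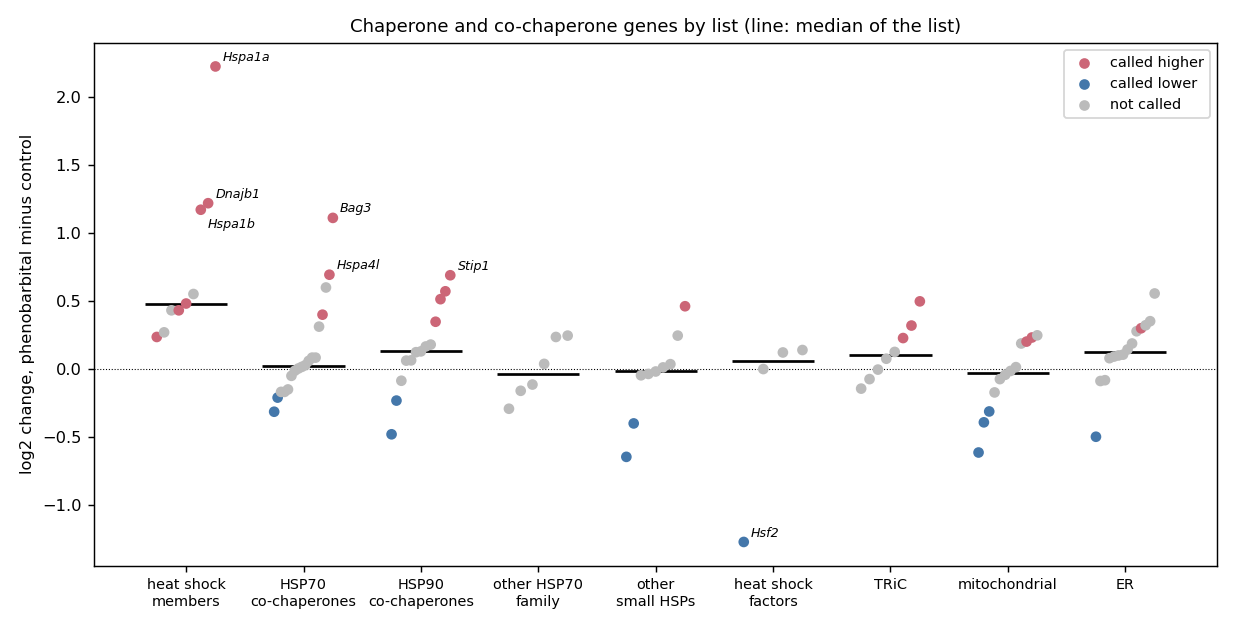
Log2 change (vertical axis, phenobarbital minus control, limma over all 10 arrays) of each measured gene of the heat shock members and of 8 other chaperone lists, with red for genes called higher, blue for called lower, grey for not called and a line at each list's median. The members' median is 0.48, the medians of the other lists lie between -0.04 and 0.13, and Bag3 and Hsf2 lie outermost among the other lists.

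Chaperones of the endoplasmic reticulum were high in another animal. Of 14 genes 1 rose (Pdia4, 0.30 ± 0.10 SE) and 1 fell (Dnajc3, -0.50 ± 0.14 SE), near the 9.02% and 11.3% of all genes. Against control replicate 4 the values were 0.16 for Pdia4 and -0.33 for Dnajc3. The median log2 change of the 14 genes was 0.13, and -0.07 against that control. Their highest array was treated replicate 5 in 12 of 14 genes and treated replicate 1 in none, whereas treated replicate 1 was the highest array for 8 of 9 heat shock genes and replicate 5 for 1. Over all genes treated replicate 5 was the highest array in 8.07%. This difference between the lists was not tested.

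Immediate-early genes, which respond within minutes to growth signals and stress, had treated replicate 1 as their highest array for 6 of 12 genes, beside 9.5% of all genes. Fos read 9.46 there, against 5.70 to 7.41 in the other treated livers and 5.88 to 6.53 in controls, and Atf3 read 7.21 against at most 6.11 on any other array. Egr1 was highest in control replicate 4 (10.23). Only Jun of the 12 genes passed (1.39 ± 0.46 SE, limma adjusted p = 0.0496), beside 9.02% of all genes that rose and 11.3% that fell. It read 10.50 in treated replicate 1, 7.42 to 8.02 in the other treated livers and 6.43 to 7.29 in controls. With the spike-in set as a block Jun was not called (0.97, limma adjusted p = 0.658) and Junb was lower (-1.42, limma adjusted p = 0.0342). After quantile normalisation or median centring 2 genes of the list rose and 0 fell, where 3844 and 3720 of all 18193 genes were called in either direction. Without treated replicate 1 or without control replicate 4, 1 rose and 1 fell, beside 2937 and 4610 of all genes called. Without both, 1 rose and 2 fell, beside 4178 of all genes called.

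The genes whose pattern over the 10 arrays was most like the mean of the 9 heat shock genes were, among 7780 other genes with a mean level above 7, Zfand2a, Jun, P4ha1, Ahsa2, Clp1, Bag3, Cep126 and Hspa4l. Their Pearson correlation with that mean was 0.98 for Zfand2a, an arsenite- and heat-inducible gene, 0.96 for Jun and between 0.92 and 0.94 for the others. Leaving out treated replicate 1 and control replicate 5, the arrays farthest from the median, it was 0.97 for Zfand2a and Bag3, 0.96 for Jun, 0.95 for Hspa4l and between 0.84 and 0.87 for the rest. These values describe a choice made on the same arrays, which share group and spike-in set. Zfand2a read 8.09, 8.02, 8.06, 8.31 and 8.05 in controls 1 to 5 and 9.65, 8.57, 8.53, 8.55 and 8.95 in treated replicates 1 to 5.

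Cell type markers gave the tissue as labelled. The 5 hepatocyte markers had a mean of 14.48 to 14.54 in controls and 14.41 to 14.55 in treated livers, and none was called by limma (none at an unadjusted p under 0.05). Of these 5, Alb, Serpina1c, Ttr and Apoa1 read 14.68 or more on every array, near the top of the scale, where a change may not be measurable. Of the 5 stellate cell markers 3 fell (Lrat, Dcn and Reln), with a list mean of 8.95 to 9.11 in controls and 8.45 to 8.80 in treated livers. Of the 5 endothelial markers 3 fell (Stab2, Clec4g and Kdr), with 8.22 to 8.75 and 7.97 to 8.41. Over all genes 11.3% fell. The endothelial count was 2 after quantile normalisation and 1 after median centring, and the stellate count stayed at 3 in both. In these fits 3844 and 3720 of all 18193 genes were called in either direction. Against control replicate 4 the values were -0.66, -0.63 and -0.50 for Lrat, Dcn and Reln. For Stab2, Clec4g and Kdr they were -0.65, -0.29 and -0.11. Kupffer cell markers (8.25 to 8.69 and 8.25 to 8.62), lymphocyte and NK cell markers (5.19 to 5.4 and 5.17 to 5.35) and 2 neutrophil markers (4.26 to 4.81 and 4.16 to 4.46) held no called gene by limma, with 1, 2 and 0 at an unadjusted p under 0.05. Of all 18193 genes 6372 passed that unadjusted limit. Both neutrophil markers and Cd3g, Cd79a, Cd79b and Nkg7 read 5.17 or less on every array. That is below the array medians of 5.42 to 5.50, where a change may not be measurable. Of 4 cholangiocyte markers Epcam rose (5.24 to 5.56 and 5.35 to 5.50 for the list), and of 2 erythroid markers Alas2 rose (7.40 to 7.76 and 7.58 to 7.86). Over all genes 9.02% rose. Against control replicate 4 Epcam was only 0.19 and Alas2 0.07 higher. Krt19, Krt7 and Sox9 changed by 0.08, -0.17 and -0.15 and were not called. Hba-a1, which read 4.29 to 4.66, changed by 0.03 and was not called either. Treated replicate 1 was the highest array for 1 of the stellate cell markers and for none of the other markers. The part of these cells in the heat shock values was not tested.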

How the data were processed

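RNA of 10 whole mouse livers was measured on Affymetrix arrays, 1 animal an array. The authors deposited log2 values per probe set, with 2 decimals and a range of 2.34 to 15.13. GCOS is named in the submitters' processing notes, and the summarisation and normalisation are not given in the sources used here. For the fit over 18193 genes, the single-symbol probe set with the highest mean over the 10 arrays stood for its gene. Probe sets were also fitted singly, over all 45037 that are not array controls. Groups were compared with limma 3.58.1 (lmFit and eBayes, R 4.3.3) over all genes, with Benjamini-Hochberg adjustment and a threshold of 0.05. The fit was tested on simulated data. Other normalisations, probe set choices, variance models, blocks and left-out animals were run as alternatives. Sequences come from RefSeq GRCm38.p6. The members and gene lists were chosen with earlier results of these data known. Named genes were all members, up to 4 called genes with the largest change in each other list, and 8 genes with the most similar pattern. Bag1, Sugt1, Hspe1, Hspa9, Fos, Atf3, Egr1, Junb and some cell type markers fall outside that rule and were chosen after their values were seen. Arrays carry no count, so their number limits the precision.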

Additional observations from a re-analysis of the deposited data

Results flagged for a closer look

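Of 126 groups of 5 values, 19 held a value whose gap to its nearest neighbour was large against the range of its group (Dixon's limit, which chance passes in about 1 in 20 groups). In 5 of these phenobarbital replicate 1 was high: Hspa1a at 11.5, Dnajb1 at 11.91 and 11.23 on its 2 probe sets, Jun at 10.5 and P4ha1 at 8.91. Jun and P4ha1 were among the genes picked for a pattern like that of the heat shock genes, so they add nothing to that count, and over all genes phenobarbital replicate 1 was high by this limit in 0.824%. Control replicate 4 was high for Hsph1 (11.05), Hsp90aa1 (11.65 on 1426645_at), Dnajb2 (9.89), Ahsa1 (11.02), Stip1 (9.31), Alas2 (10.86), Zfand2a (8.31) and Ahsa2 (10.16), and low for Hsf2 (5.69). The remaining values were spread over other animals. Phenobarbital replicate 3 was high for 1433251_at of Hsp90aa1 (5.99) and for Reln (10.02), phenobarbital replicate 4 was low for Dcn (10.75), phenobarbital replicate 5 was low for Clpx (11.34) and control replicate 5 was high for Hspa12b (5.2).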

How the results depend on the processing

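With the spike-in set as a block, limma called 143 genes in all, 0 members and 0 of their probe sets; with the spike-in mean as a covariate it called 129, 0 and 0. Hspb1 turned to -0.47 and -0.29 in these fits. Leaving out each animal in turn gave 2431 to 4610 genes in all, 5 to 7 members higher and 0 to 0 lower, and 13 to 17 probe sets higher. Without phenobarbital replicate 1 and control replicate 4 together, an alternative chosen after seeing the data, 7 members rose. The labels do not say whether animals with the same replicate number are paired. Deviations of animals with the same number correlated between -0.02 and 0.12, and 2 of 5 controls correlated best with their own number. With the replicate block, 3664 genes in all, 6 members and 16 probe sets were called. Members called higher numbered 7 after quantile normalisation, 8 after median centring, 7 when probe sets were averaged and 5 under a robust, trended variance. In these fits 3844, 3720, 3760 and 3866 of all 18193 genes were called in either direction. The main fit called 3692 genes and 6 members.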
